A study of Mus musculus with 35 samples.

Results

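The T cell receptor complex and homing set holds 10 genes, Cd3d, Cd3e, Cd3g, Cd4, Cd8a, Cxcr6, Il2rb, Il7r, Lat and Lck, out of the 22609 gene symbols of the count tables. Its members were chosen by symbol, for their place in antigen recognition, cytokine sensing and tissue homing of skin T cells. The choice was made with earlier results of these data known. All 10 were found in all 35 libraries. Messenger RNA was sequenced from cells sorted out of mouse hind paw skin after paclitaxel (PTX), a microtubule-stabilising chemotherapy drug, or vehicle. All mice were of the C57 strain and 8 to 16 weeks old, and PTX mice received 2 intraperitoneal injections of 2 mg/kg, 1 day apart, with skin taken 6 days after the last. Immune cells were taken from wild-type mice by their CD45 and formed 3 groups of 4 libraries: PTX males, vehicle females and vehicle males. Fibroblasts came from Col1a2-cre-ER/tdTom mice (4 PTX male, 4 vehicle female and 4 vehicle male libraries), and keratinocytes from K5-cre-ER/tdTom mice (4 PTX male, 4 vehicle female and 3 vehicle male libraries). In these lines the tdTomato label depends on the named promoter and on Cre induction. The label does not show that a library holds RNA of such cells only. RNA of other cells in the keratinocyte sort is given further on. No PTX females were sequenced, so in PTX males against vehicle females treatment and sex cannot be told apart. Whether the libraries of a group are separate mice is not stated in the labels, so the p-values rest on a spread between libraries that may be technical.

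A T cell recognises antigen through a receptor whose variable chains carry no signalling domain of their own and signal through the CD3 gamma, delta and epsilon chains. The coreceptors CD4 and CD8 bring the kinase Lck to the receptor, and the phosphorylated adaptor Lat then assembles the signalling complex. Skin holds resident T cells, among them gamma-delta T cells of the epidermis, which depend on interleukin-7 and interleukin-15 and of which many carry CXCR6, the receptor of the chemokine CXCL16. Several of the 10 genes are used by other cells as well: natural killer and innate lymphoid cells use Il2rb, Il7r and Cxcr6, mast cells use Lat, and some dendritic cells and macrophages carry Cd4 or Cd8a.

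The immune libraries held 13847500 to 18979800 reads in genes, the fibroblast libraries 13359100 to 20809000 and the keratinocyte libraries 988712 to 12055700. Levels are given as CPM, read counts relative to library size, scaled by TMM within a sort unless stated otherwise. The CD45 label was checked with Ptprc, which encodes CD45: it averaged 639 ± 156 CPM in PTX males, 580 ± 119 CPM in vehicle females and 481 ± 99.0 CPM in vehicle males (SD, n = 4 each). In bulk RNA, fewer cells of a type and less RNA per cell cannot be told apart.

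The set was highest in the immune sort for most genes, but it was not confined to that sort. With all 35 libraries scaled together, the group with the highest mean was an immune group for 9 of 10 genes, and PTX males for 8 of them: Cd3d, Cd3e, Cd3g, Cxcr6, Il2rb, Il7r, Lat and Lck. Neighbours in that order seldom separated. The ranges of the 3 immune groups overlapped for each of these 8 genes whenever they stood next to each other. Cd4 was highest in vehicle females (70.8 ± 14.9 CPM), ahead of PTX males (39.2 ± 45.3 CPM) and vehicle males (38.1 ± 20.8 CPM; SD, n = 4 each). Cd8a was the exception, with its highest mean in vehicle female keratinocytes, where 1 library held 810 counts and the other 3 held 0. For Cd3g, PTX male keratinocytes (39.8 ± 26.4 CPM) stood above the immune vehicle males (20.1 ± 5.48 CPM) and vehicle females (17.3 ± 14.1 CPM). For Cxcr6 they (42.5 ± 50.9 CPM) stood above the immune vehicle males (27.6 ± 3.74 CPM). The ranges overlapped in each case (SD, n = 4 each).

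**Figure D1:**
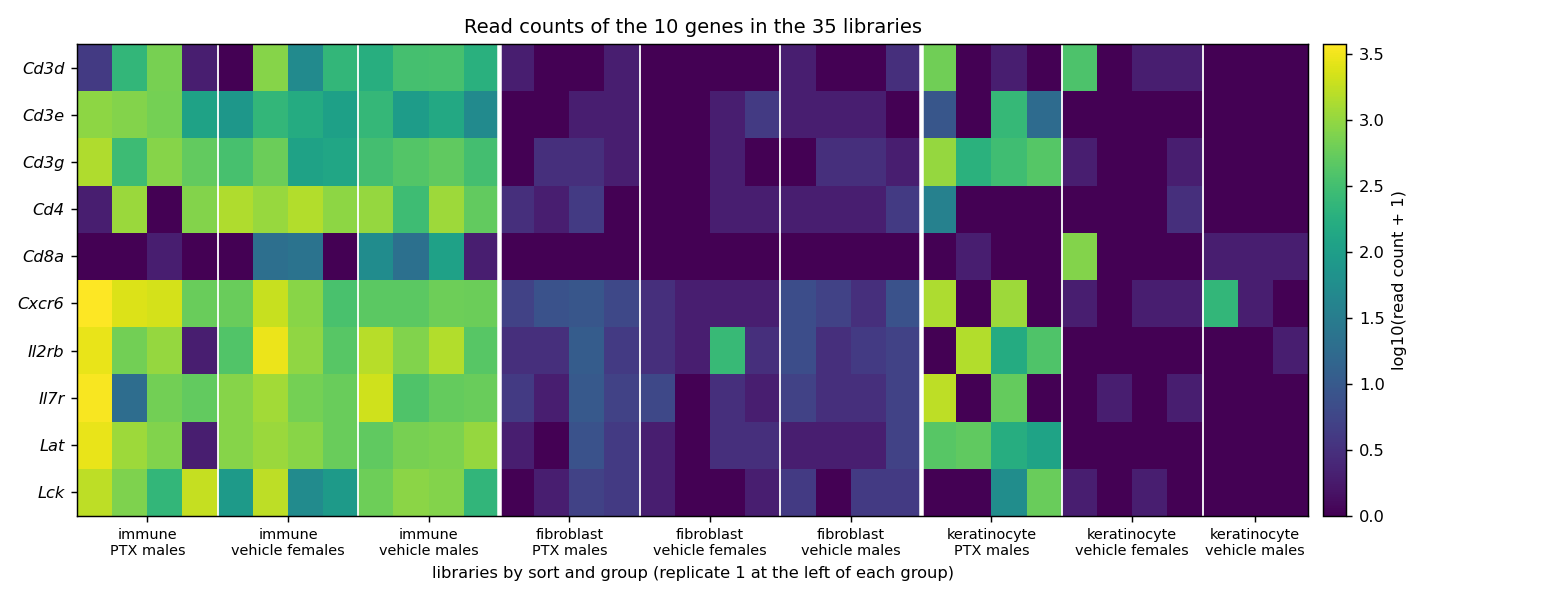
Read counts of the 10 genes (rows) in the 35 libraries (columns), as log10(count + 1), by sort and group, with PTX males at the left of each sort. The 12 immune libraries are bright in most rows, the fibroblast libraries are dark apart from Il2rb in 1 vehicle female library (252 counts), and among keratinocyte libraries the 4 PTX male libraries carry most of the counts.

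Within the immune libraries, Cxcr6 was the member that rose in PTX males over vehicle males. Its level was 305, 158, 171 and 49.4 CPM in the 4 PTX male libraries, against 29.6, 118, 52.8 and 19.9 CPM in vehicle females and 23.5, 26.8, 33.1 and 29.1 CPM in vehicle males. Each PTX library lay above each vehicle male library, while the lowest PTX library lay below 2 of the 4 vehicle female libraries. The means were 171 ± 105 CPM in PTX males and 28.1 ± 4.01 CPM in vehicle males (SD, n = 4 each), a log2 fold change of 2.60 ± 0.65 (SE; edgeR quasi-likelihood test, adjusted p = 0.0369 by Benjamini-Hochberg over 12131 genes). It was 1 of 10 members called, beside 5.51% of all tested genes called in either direction and 0.956% called higher. It was also the 1 member of 10 whose groups did not overlap, beside 3.11% of all tested genes that lay higher without overlap and 10.8% that lay lower.

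Against vehicle females the difference in Cxcr6 was 1.64 ± 0.63 on the log2 scale and did not pass (edgeR, adjusted p = 0.204). The 2 comparisons share the PTX libraries. The call against vehicle males rested on the scaling and on single libraries. Scaled to the pan-immune genes, the difference was 1.82 with an adjusted p of 0.112 in edgeR, while the median of all genes moved to -0.54, against 0.10 with TMM, so that relative to the median the difference was 2.36 under pan-immune scaling and 2.51 under TMM. The adjusted p in edgeR was 0.0856 without PTX male 1, and 0.0813, 0.101, 0.0896 and 0.0942 without vehicle male 1, 2, 3 and 4, at log2 fold changes of 2.14 to 2.59.

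**Figure D2:**
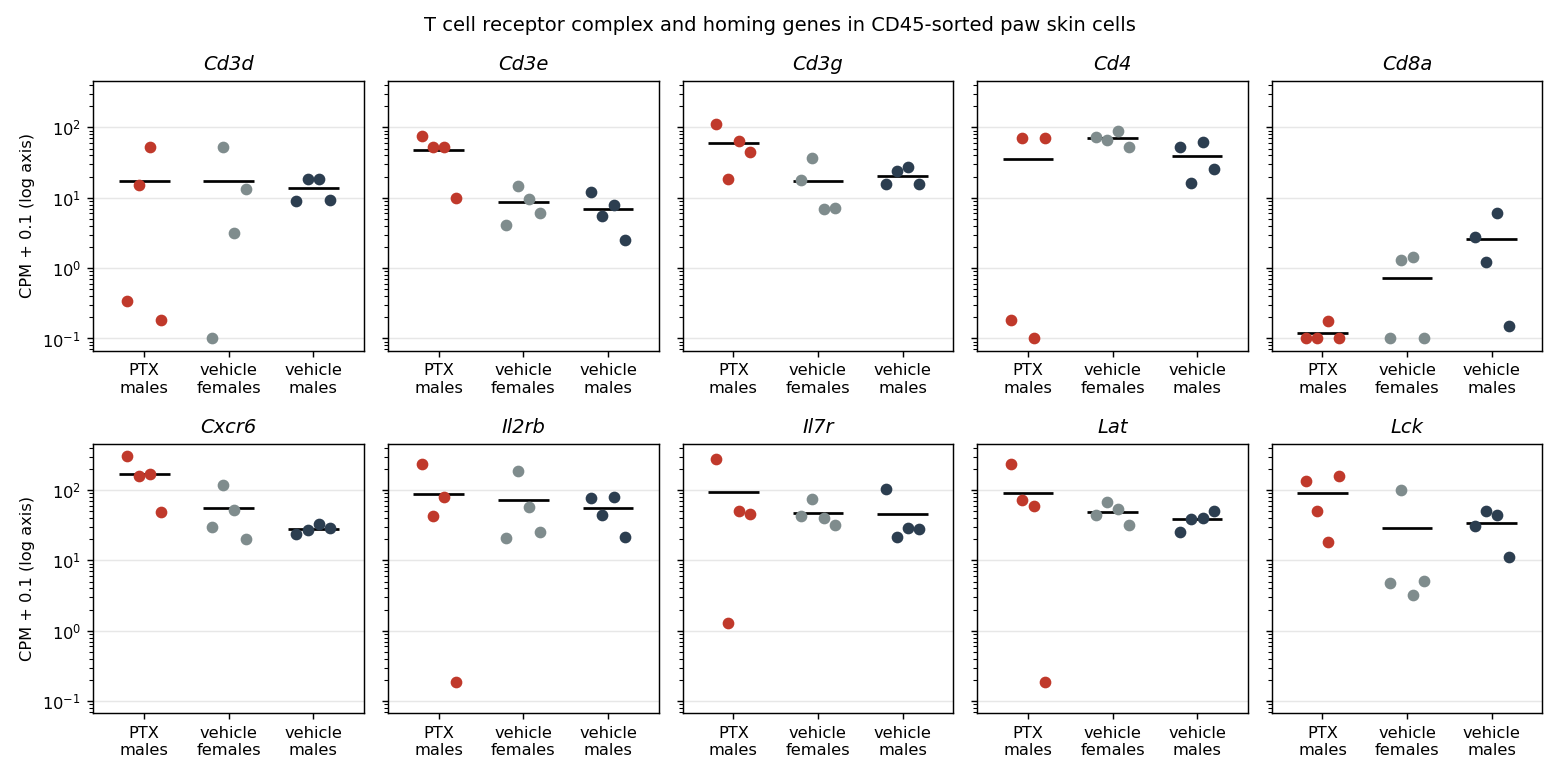
Level of each gene in the 12 immune libraries, as CPM + 0.1 on a log axis, with 1 point per library (replicates 1 to 4 from left to right) and a line at the group mean. For Cxcr6 the 4 PTX male libraries (49.4 to 305 CPM) lie above the 4 vehicle male libraries (23.5 to 33.1 CPM), and for Cd3d, Cd4, Il2rb, Il7r and Lat single PTX libraries sit at or near the bottom of the axis.

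The 3 CD3 chain genes, which encode the signalling chains of the receptor, lie together on chromosome 9 in the RefSeq promoter table (GRCm38.p6). Cd3g and Cd3d stand head to head on opposite strands with starts 1355 bases apart, and the starts of Cd3d and Cd3e are 27825 bases apart. The 250 bases before each start are shown because these neighbours came apart in single libraries. Capitals mark matches, on either strand, to AGGAAG (the ETS core, in 29.5% of 32851 promoter windows of the same length) or CAGNTG (the E-box, in 44.8%). TGTGGT (the RUNX core, in 14% of windows) and TATAAA (12.4%) were searched as well and had no match in these 3. No motifs overlapped. A match is a run of letters, not a binding site. The windows are chr9:44981536-44981785 on the plus strand for Cd3d, chr9:44980432-44980681 on the minus strand for Cd3g and chr9:45009612-45009861 on the minus strand for Cd3e.
Cd3d: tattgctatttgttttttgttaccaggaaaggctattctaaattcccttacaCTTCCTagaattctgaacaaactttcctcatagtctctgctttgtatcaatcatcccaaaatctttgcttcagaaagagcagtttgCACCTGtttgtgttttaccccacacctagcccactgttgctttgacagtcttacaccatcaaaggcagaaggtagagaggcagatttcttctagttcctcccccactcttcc
Cd3g: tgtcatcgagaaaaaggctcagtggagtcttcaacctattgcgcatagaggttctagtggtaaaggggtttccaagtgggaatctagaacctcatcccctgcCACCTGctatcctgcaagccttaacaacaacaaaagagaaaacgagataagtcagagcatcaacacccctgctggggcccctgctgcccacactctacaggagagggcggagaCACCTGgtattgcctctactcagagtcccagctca
Cd3e: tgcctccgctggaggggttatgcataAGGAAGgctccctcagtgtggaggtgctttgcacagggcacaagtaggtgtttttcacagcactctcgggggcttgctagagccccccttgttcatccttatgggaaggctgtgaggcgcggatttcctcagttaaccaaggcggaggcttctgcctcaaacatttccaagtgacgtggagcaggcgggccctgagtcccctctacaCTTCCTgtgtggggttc
The Cd3d window holds 1 ETS core and 1 E-box, the Cd3g window 2 E-boxes and the Cd3e window 2 ETS cores.

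Cd3e, the epsilon chain found in each CD3 dimer, had 75.3, 52.4, 52.2 and 9.80 CPM in PTX males, against 4.06, 14.4, 9.64 and 5.88 CPM in vehicle females and 12.1, 5.33, 7.85 and 2.44 CPM in vehicle males. PTX male libraries 1 to 3 lay above all 8 vehicle libraries, and PTX male 4 lay within the range of both vehicle groups. Its log2 fold change was 2.78 ± 1.02 over vehicle males and 2.48 ± 1.01 over vehicle females (SE). Neither passed in edgeR after adjustment (adjusted p = 0.127 and 0.229, unadjusted p = 0.0169 and 0.0280), beside 20.1% and 15.7% of all tested genes at an unadjusted p under 0.05. DESeq2 called both, with adjusted p of 0.00187 over vehicle males, where it called 15.4% of all tested genes, and 0.0103 over vehicle females, where it called 10.4%.

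Cd3g, the gamma chain, had 113, 18.2, 65.0 and 44.5 CPM in PTX males, 17.5, 36.2, 6.91 and 7.16 CPM in vehicle females and 15.8, 23.6, 27.4 and 15.5 CPM in vehicle males. PTX libraries 1, 3 and 4 lay above each vehicle library and PTX male 2 lay among them. The difference was 1.55 ± 0.87 on the log2 scale over vehicle males (edgeR, adjusted p = 0.390) and 1.83 ± 0.87 over vehicle females (edgeR, adjusted p = 0.336).

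Cd3d, the delta chain, had 0.244, 15.0, 53.1 and 0.0852 CPM in PTX males, 0, 51.8, 3.09 and 13.1 CPM in vehicle females and 8.76, 18.3, 18.6 and 9.12 CPM in vehicle males. The spread within PTX males covered the vehicle male range on both sides, and the means were 17.1 ± 25.0, 17.0 ± 23.9 and 13.7 ± 5.50 CPM in PTX males, vehicle females and vehicle males (SD, n = 4 each). Over vehicle males Cd3d differed by 0.32 ± 1.82 on the log2 scale (edgeR, adjusted p = 0.976). Pan-immune scaling put it at -0.21, but relative to the median of all genes it was 0.22 under TMM and 0.33 under pan-immune scaling. PTX male 1 held 3 counts of Cd3d beside 1394 of Cd3g, and PTX male 4 held 1 count of Cd3d beside 522 of Cd3g.

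The coreceptor Cd4, which marks helper and regulatory T cells, split the PTX libraries. It had 0.0813, 71.5, 0 and 70.5 CPM in PTX males (1, 1096, 0 and 827 counts), 74.0, 65.9, 87.5 and 52.3 CPM in vehicle females and 51.9, 16.2, 61.1 and 25.7 CPM in vehicle males. PTX males 2 and 4 were at the vehicle level and PTX males 1 and 3 were at or near 0, while the 8 vehicle libraries lay between 16.2 and 87.5 CPM. The group difference over vehicle males was -0.12 ± 1.46 on the log2 scale (edgeR, adjusted p = 0.991), which describes neither pair of PTX libraries.

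Cd8a, the alpha chain of the coreceptor of cytotoxic T cells, was scarce in each immune group. It had 0, 0, 0.0774 and 0 CPM in PTX males (1 count in all), 0, 1.18, 1.33 and 0 CPM in vehicle females and 2.70, 1.12, 5.99 and 0.0488 CPM in vehicle males. PTX libraries were at the floor of the count scale and overlapped both vehicle groups, and no fold is given because its size depends on the prior count. The difference did not pass over vehicle males (edgeR, adjusted p = 0.120) or over vehicle females (edgeR, adjusted p = 0.331). Cd8b1, the other chain of the CD8 heterodimer, was looked up after its values were seen: it had 53.4, 0, 0 and 1.62 CPM in PTX males, so PTX male 1 held 657 counts of Cd8b1 and 0 of Cd8a.

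Lck, the kinase carried by the coreceptors, had 135, 50.6, 18.0 and 157 CPM in PTX males, 4.63, 102, 3.15 and 4.92 CPM in vehicle females and 30.5, 50.0, 44.7 and 11.0 CPM in vehicle males. PTX males 1 and 4 lay above all vehicle libraries and PTX males 2 and 3 lay within the vehicle female range. For Lck the difference was 1.41 ± 1.13 on the log2 scale over vehicle males (edgeR, adjusted p = 0.655) and 1.66 ± 1.13 over vehicle females (edgeR, adjusted p = 0.622).

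The adaptor gene Lat had 235, 72.6, 60.3 and 0.0852 CPM in PTX males, 44.2, 68.3, 53.2 and 31.9 CPM in vehicle females and 24.9, 38.7, 40.7 and 50.1 CPM in vehicle males. PTX males 1 to 3 lay above all vehicle males, and PTX male 4 held 1 count. The log2 fold change was 1.25 ± 1.11 over vehicle males (edgeR, adjusted p = 0.715) and 0.90 ± 1.11 over vehicle females (edgeR, adjusted p = 0.881). Mast cells use Lat too, and their marker list is given further on.

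Il2rb, the beta chain shared by the interleukin-2 and interleukin-15 receptors, had 234, 42.7, 79.5 and 0.0852 CPM in PTX males, 20.8, 185, 57.2 and 24.9 CPM in vehicle females and 77.5, 44.8, 80.0 and 21.2 CPM in vehicle males. PTX male 1 was the highest of the 12 libraries and PTX male 4, with 1 count, the lowest. The log2 fold change was 0.67 ± 1.21 over vehicle males (edgeR, adjusted p = 0.913) and -0.17 under pan-immune scaling. Relative to the median of all genes, Il2rb stood at 0.57 under TMM and 0.37 under pan-immune scaling.

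Il7r, the interleukin-7 receptor alpha chain, had 279, 1.17, 50.7 and 44.9 CPM in PTX males, 43.4, 73.8, 40.4 and 31.8 CPM in vehicle females and 103, 21.7, 28.9 and 27.8 CPM in vehicle males. PTX male 1 was again the highest library, PTX male 2 the lowest, and the other PTX libraries lay among the vehicle ones. The log2 fold change was 1.05 ± 1.04 over vehicle males (edgeR, adjusted p = 0.768) and 0.99 ± 1.04 over vehicle females (edgeR, adjusted p = 0.836).

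Over the set, 8 of 10 log2 fold changes were above 0 in PTX males over vehicle males, beside 53.3% of all tested genes. Their median was 1.15 beside 0.10 for all. The set was chosen with earlier results of these data known, so its counts and medians are a description only. An unadjusted p under 0.05 was reached by 3 of 10, Cxcr6 and Cd3e upward and Cd8a downward, beside 20.1% of all tested genes, and DESeq2 called 2, Cxcr6 and Cd3e, beside 15.4%. In PTX males over vehicle females 8 of 10 were above 0 as well, beside 53.7% of all tested genes, with a median of 0.94 beside 0.09. None of the 10 was called there by edgeR, beside 1.76% of all genes. An unadjusted p under 0.05 in edgeR was reached by 2, Cxcr6 and Cd3e, beside 15.7% of all tested genes. DESeq2 called 1, Cd3e, beside 10.4%. Between vehicle females and vehicle males none of the 10 was called by edgeR, beside 0.354% of all genes. None had an unadjusted p under 0.05 in edgeR, beside 4.11% of all genes. DESeq2 and limma with voom called none of the 10 either, beside 2.34% and 3.66% of all genes. Cxcr6 itself differed between vehicle females and vehicle males by 0.97 ± 0.62 on the log2 scale (edgeR, unadjusted p = 0.142).

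**Figure D3:**
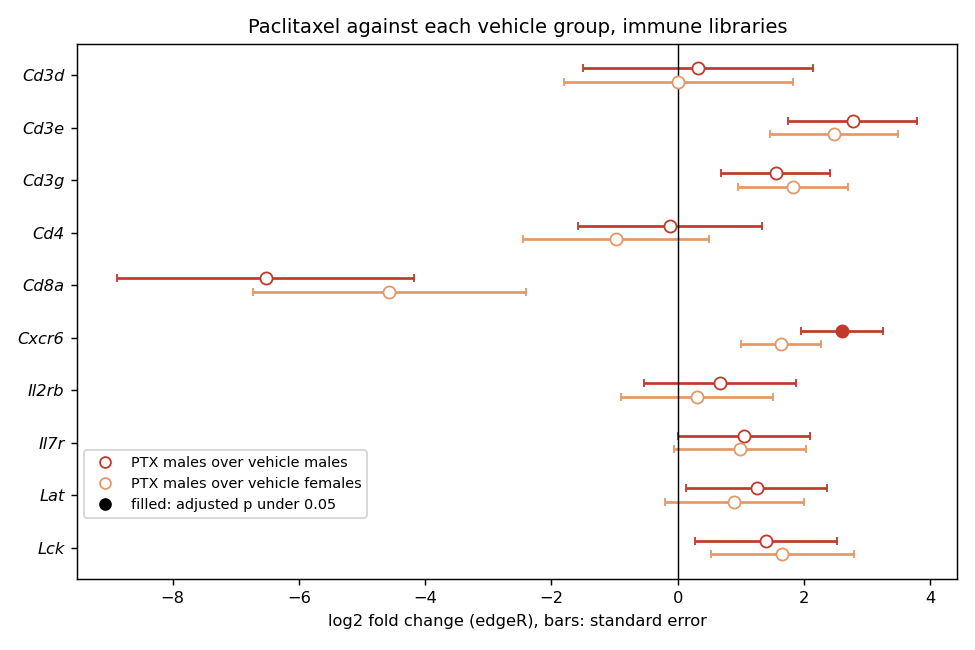
Log2 fold change with its standard error for each gene in PTX males over vehicle males (dark) and over vehicle females (light), from edgeR; filled points passed an adjusted p of 0.05. Cxcr6 over vehicle males (2.60) is the 1 filled point, Cd3e stands beside it at 2.78 with a longer bar, and the values of Cd8a rest on a PTX group with 1 count.

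Per kilobase of exon, the order of the members also differed between the groups. Cxcr6 was the most abundant of the 10 in PTX males at 88.6 ± 54.3 CPM per kilobase, ahead of Lat at 73.9 ± 80.7 and Cd3g at 58.9 ± 39.3 (SD, n = 4). Lat was the most abundant in vehicle females (39.7 ± 12.3 CPM per kilobase) and in vehicle males (31.0 ± 8.37 CPM per kilobase). Cxcr6 stood at 28.5 ± 22.8 CPM per kilobase in vehicle females, next after Lat, and at 14.6 ± 2.08 CPM per kilobase in vehicle males, below 3 other members. Cxcr6 and Lat differed by less than the larger of their SDs in PTX males and in vehicle females, and the lengths are those of another annotation (GENCODE M21) than the one counted on.

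The scatter within PTX males went with a property of whole libraries. The number of genes over 10 counts was 5956 to 8700 in PTX males, 10974 to 11036 in vehicle females and 11000 to 12813 in vehicle males. Of the 36 values of the 9 members other than Cd8a, 6 (16.7%) were at 3 counts or fewer in PTX males, 1 (2.78%) in vehicle females and 0 in vehicle males. Of the 6639 other genes whose mean over the vehicle libraries lay in the same range (7.71 to 64.0 CPM, a range set on the vehicle libraries), 32.9% of values were that low in PTX males, 5.16% in vehicle females and 2.41% in vehicle males. Picking genes by their vehicle mean in part fixes the small shares in the vehicle libraries, so the gap between these shares is no measure of a difference. Within the PTX libraries, low values of Cd3d, Cd4, Il2rb and Lat stand among many other genes at or near 0. The part of this property in the differences above was not tested.

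**Figure D4:**
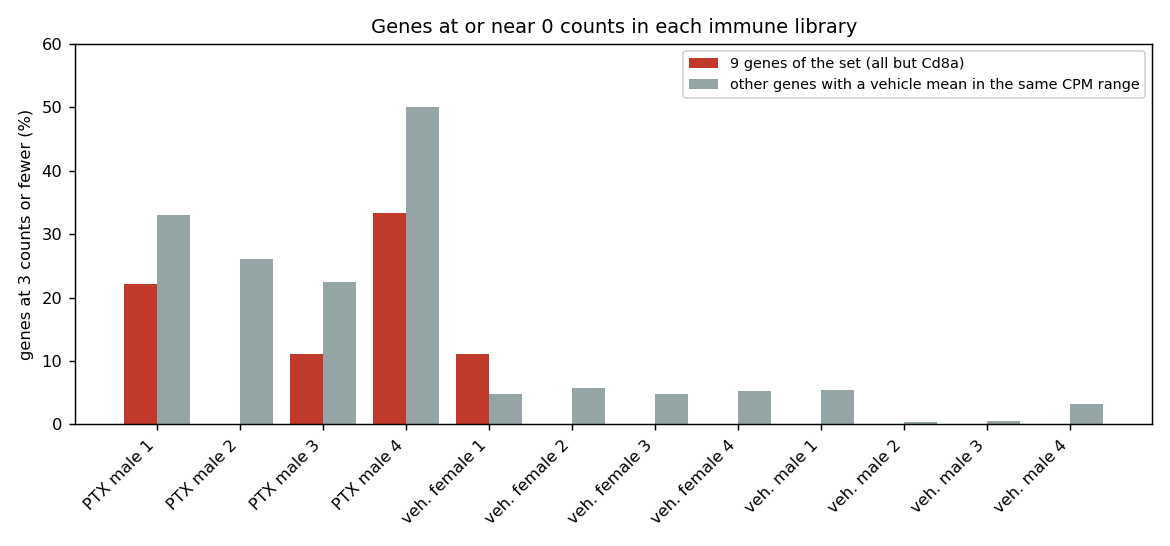
Share of genes at 3 counts or fewer in each immune library, for the 9 genes other than Cd8a and for the 6639 other genes with a vehicle mean in the same CPM range. In PTX males 22.5 to 50.0% of the genes in range are that low, against 4.82 to 5.69% in vehicle females and 0.437 to 5.47% in vehicle males. The choice of genes by their vehicle mean in part fixes the small vehicle shares.

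The other genes of the receptor pathway did not pass as single genes. Of 35 listed T cell receptor signalling genes 33 were tested in PTX males against vehicle males. By edgeR 0 were called higher or lower, beside 5.51% of all tested genes. An unadjusted p under 0.05 was reached by 4 upward and 3 downward, beside 20.1% of all tested genes in either direction. The median was 0.72 beside 0.10 for all. The lowest p belonged to Lcp2, the SLP-76 adaptor that pairs with Lat, at 338 ± 123 CPM in PTX males and 151 ± 36.5 CPM in vehicle males (SD, n = 4 each; log2 fold change 1.16 ± 0.32, edgeR, adjusted p = 0.0518). Next was Prkcq, which encodes protein kinase C theta. It had 2, 0, 5 and 1 counts in PTX males against 210, 389, 537 and 169 counts in vehicle males. Its groups did not overlap (edgeR, adjusted p = 0.0618), beside 10.8% of all tested genes that lay lower without overlap. In the same comparison the listed skeletal muscle genes had a median log2 fold change of -6.30. The part of RNA of other cells in the difference of Prkcq was not tested. Against vehicle females 0 of 33 were called by edgeR either, beside 1.76% of all tested genes, and the median was 0.21 beside 0.09 for all. An unadjusted p under 0.05 in edgeR was reached by 3, all downward, beside 15.7% of all tested genes. Zap70, the kinase that docks on phosphorylated CD3 chains, was added after its values were seen: it had 138, 111, 17.7 and 0.0852 CPM in PTX males and 6.11, 4.43, 5.18 and 4.54 CPM in vehicle males (log2 fold change 3.72 ± 1.40, edgeR, adjusted p = 0.135). PTX male 4 was thus at 1 count for Cd3d, Lat, Il2rb and Zap70, while it was the highest of the 12 libraries for Lck.

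Of the 12 listed partners of the interleukin-2 and interleukin-7 receptors 0 were called by edgeR in PTX males against vehicle males, beside 5.51% of all tested genes. An unadjusted p under 0.05 was reached by 2, beside 20.1% of all tested genes. Above 0 lay 11 (median 0.76), beside 53.3% of all tested genes. Il2ra, the high-affinity interleukin-2 receptor chain CD25, had 301, 48.8, 32.2 and 81.2 CPM in PTX males, 10.5, 24.0, 16.7 and 3.02 CPM in vehicle females and 0.901, 2.81, 16.0 and 28.1 CPM in vehicle males. All 4 PTX libraries lay above all 8 vehicle libraries. Against vehicle males alone, 3.11% of all tested genes lay higher without overlap. The log2 fold change of Il2ra was 3.28 ± 1.15 over vehicle males (edgeR, adjusted p = 0.111) and 3.09 ± 1.14 over vehicle females (edgeR, adjusted p = 0.188). Il2rg, the common gamma chain, had 514 ± 467 CPM in PTX males and 176 ± 56.3 CPM in vehicle males (SD, n = 4 each; edgeR, adjusted p = 0.144).

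The ligand side of the Cxcr6 axis was measured in the same libraries. Cxcl16, the membrane-bound chemokine that CXCR6 recognises, had 719, 489, 630 and 590 CPM in PTX males, 404, 333, 384 and 231 CPM in vehicle females and 294, 179, 199 and 231 CPM in vehicle males. All 4 PTX libraries lay above all 8 vehicle libraries. Against vehicle males alone, 3.11% of all tested genes lay higher without overlap. Cxcl16 rose over vehicle males by 1.43 ± 0.24 on the log2 scale (edgeR, adjusted p = 0.00756). It stood 0.84 ± 0.24 above vehicle females without passing (edgeR, adjusted p = 0.0974). The call over vehicle males held in each of 8 fits that left out a library, at log2 fold changes of 1.26 to 1.53, but not under pan-immune scaling (0.77; edgeR, adjusted p = 0.161).

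Of 16 tested homing and survival ligands, 2 rose and 2 fell in PTX males against vehicle males by edgeR, beside 0.956% of all genes called higher and 4.56% called lower, with a median of 0.29. Cxcl10, an interferon-induced chemokine that draws T cells through CXCR3, rose by 2.36 ± 0.45 on the log2 scale to 354 ± 181 CPM in PTX males, against 69.0 ± 17.2 CPM in vehicle males (SD, n = 4 each; edgeR, adjusted p = 0.0125). It no longer passed without vehicle male 2 or 3 (edgeR, adjusted p = 0.0508 and 0.0525) or under pan-immune scaling (1.82; edgeR, adjusted p = 0.0769). Sele and Selp, the endothelial selectins on which T cells roll, fell (edgeR, adjusted p = 0.0231 and 0.0271): Sele averaged 0.0579 ± 0.0396 CPM in PTX males and 33.0 ± 36.0 CPM in vehicle males, and Selp had no count in PTX males and 45.2 ± 52.1 CPM in vehicle males (SD, n = 4 each). Single vehicle libraries set these calls too. Without vehicle male 2 or 4 the adjusted p in edgeR was 0.0548 and 0.0625 for Sele. Without vehicle male 2, 3 or 4 it was 0.0644, 0.0523 and 0.0640 for Selp. In the same comparison the 10 listed endothelial genes, given further on, had a median log2 fold change of -8.69. The part of endothelial RNA in the fall of Sele and Selp was not tested. Against vehicle females 0 of the 16 ligands were called by edgeR, beside 1.76% of all tested genes, and the median was -0.27. An unadjusted p under 0.05 in edgeR was reached by 6, beside 15.7% of all tested genes.

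Among 17 tested homing and residency receptors, 1 was called higher by edgeR over vehicle males, beside 0.956% of all tested genes. Rgs1, a regulator that damps chemokine receptor signalling, had 925, 389, 558 and 586 CPM in PTX males, 446, 434, 281 and 358 CPM in vehicle females and 252, 180, 161 and 206 CPM in vehicle males. PTX libraries lay above all vehicle males, as for 3.11% of all tested genes, and overlapped the vehicle females. The log2 fold change was 1.62 ± 0.28 over vehicle males (edgeR, adjusted p = 0.00784) and 0.69 ± 0.27 over vehicle females (edgeR, adjusted p = 0.216). Rgs1 passed in all 8 fits with a library left out and missed the threshold under pan-immune scaling (0.91; edgeR, adjusted p = 0.0709). The list's median was 0.31 over vehicle males and 0.13 over vehicle females.

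Lists that tell kinds of lymphocyte apart gave 2 calls. Of 27 tested T subset regulators and effectors 0 were called by edgeR over vehicle males, beside 5.51% of all tested genes, with a median of 1.87. An unadjusted p under 0.05 in edgeR was reached by 5, beside 20.1% of all tested genes. Il4, the cytokine of type 2 helper cells and mast cells, had 144, 45.8, 0.232 and 234 CPM in PTX males and 5.76, 3.48, 5.89 and 14.7 CPM in vehicle males (edgeR, adjusted p = 0.0997). Lef1, a transcription factor of naive T cells, was at 0 in all 4 PTX libraries, but also in vehicle male 4 (edgeR, adjusted p = 0.114). Of 15 listed genes of gamma-delta and epidermal T cells 10 were tested, and 0 were called by edgeR over vehicle males (median 1.67). An unadjusted p under 0.05 in edgeR was reached by 2 of them, beside the same 20.1% of all tested genes. These 10 genes were not confined to the immune sort. They summed to 595 ± 338, 227 ± 122 and 247 ± 32.2 CPM in immune PTX males, vehicle females and vehicle males. In fibroblasts these sums were 474 ± 221, 363 ± 34.9 and 423 ± 56.3 CPM (SD, n = 4 each). Klrk1, the receptor NKG2D, had 110 ± 65.4 CPM in PTX males and 35.4 ± 20.8 CPM in vehicle males (SD, n = 4 each). Its difference did not pass (edgeR, adjusted p = 0.163). T cell receptor constant region genes were not analysed here.

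Of 12 tested natural killer and innate lymphoid genes 2 rose over vehicle males (median 0.93), beside 0.956% of all tested genes called higher by edgeR. Id2, a transcriptional regulator of innate lymphoid cells that many myeloid cells share, had 508 ± 277 CPM in PTX males and 192 ± 13.7 CPM in vehicle males (SD, n = 4 each; log2 fold change 1.40 ± 0.34, edgeR, adjusted p = 0.0330). Il1rl1, the interleukin-33 receptor of type 2 innate lymphoid cells and mast cells, had 221 ± 163 CPM in PTX males and 62.6 ± 23.7 CPM in vehicle males (SD, n = 4 each; log2 fold change 1.82 ± 0.46, edgeR, adjusted p = 0.0384). Both calls were lost in 5 of 8 fits with a library left out, those without PTX male 1 or any 1 vehicle male library, with an adjusted p of up to 0.0891 for Id2 and up to 0.115 for Il1rl1 in edgeR; without PTX male 1 the log2 fold changes were 0.94 and 1.15. They were also lost with plain library sizes (edgeR, adjusted p = 0.0938 for Id2 and 0.0772 for Il1rl1) and under pan-immune scaling (0.228 and 0.309). Neither passed over vehicle females (edgeR, adjusted p = 0.201 and 0.663). Of 8 tested B cell genes 0 were called in either comparison by edgeR, with a median of -1.25 over vehicle males. An unadjusted p under 0.05 in edgeR was reached by 1 in each, beside 20.1% and 15.7% of all tested genes.

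**Figure D5:**
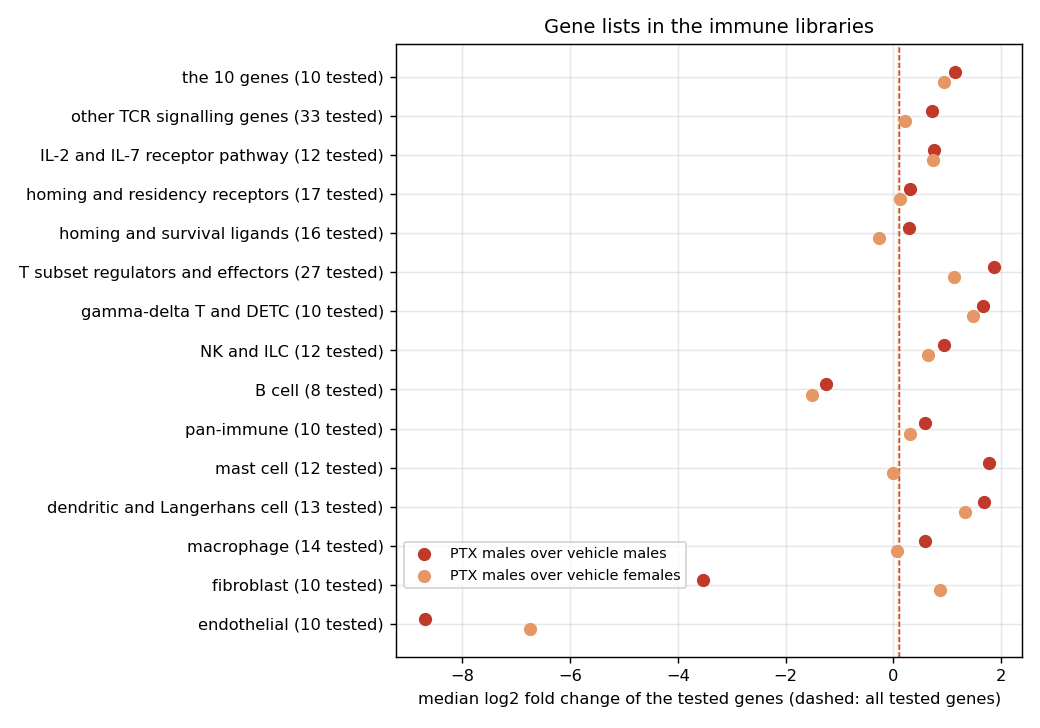
Median log2 fold change of the tested genes of each list in the immune libraries, in PTX males over vehicle males (dark) and over vehicle females (light); dashed lines mark the median of all tested genes (0.10 and 0.09). The 10 genes have medians of 1.15 and 0.94, mast cell genes stand at 1.77 over vehicle males and -0.01 over vehicle females, and endothelial genes lie far to the left in both.

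Other cell types moved with the same contrast. Of 12 mast cell genes 10 were called higher in PTX males over vehicle males and 0 over vehicle females. Of all tested genes, 0.956% were called higher and 4.56% lower over vehicle males, and 0.231% and 1.53% over vehicle females. The summed level of the mast cell genes was 3933 to 10308 CPM in PTX males, 7063 to 8903 CPM in vehicle females and 1772 to 3246 CPM in vehicle males. Dendritic and Langerhans cell genes were called higher for 5 of 13 over vehicle males and 4 of 13 over vehicle females, with summed levels of 28833 to 58442 CPM in PTX males, 11439 to 22053 CPM in vehicle females and 10147 to 16728 CPM in vehicle males. Fibroblast genes were called lower for 6 of 10 over vehicle males and higher for 1 of 10 over vehicle females, at 297 to 1516 CPM in PTX males, 86.2 to 430 CPM in vehicle females and 4637 to 10295 CPM in vehicle males. Endothelial genes were called lower for 5 of 10 over vehicle males and 2 of 10 over vehicle females, at 0.426 to 142 CPM in PTX males, 81.5 to 160 CPM in vehicle females and 115 to 712 CPM in vehicle males; the defining gene Cdh5 averaged 0.0163 CPM in PTX males. Pan-immune genes were not called in either comparison (0 of 10 by edgeR). An unadjusted p under 0.05 in edgeR was reached by 6 and 2 of them, beside 20.1% and 15.7% of all tested genes. They summed to 7299 to 13994 CPM in PTX males, 6576 to 8716 CPM in vehicle females and 4148 to 7216 CPM in vehicle males. Of 14 macrophage genes 2 were called higher over vehicle males and 1 over vehicle females, with summed levels of 31048 to 52372 CPM in PTX males, 24383 to 43098 CPM in vehicle females and 22746 to 32980 CPM in vehicle males. Over vehicle males, genes called lower numbered 4 of 8 for pericytes and smooth muscle, 3 of 10 for keratinocytes and 3 of 7 for skeletal muscle, and 0 of 6 tested neutrophil genes were called by edgeR (1 with an unadjusted p under 0.05). The part of these cell types in the differences of the 10 genes was not tested.

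In the keratinocyte sort, 4 of the 10 genes passed the filter on low counts, Cd3g, Cxcr6, Il2rb and Lat. Cd3g, Il2rb and Lat passed it through counts of PTX libraries, and Cxcr6 through 2 PTX libraries (1377 and 1108 counts) and vehicle male 1 (232 counts, 20.3 CPM). Cd3g had 1007, 193, 303 and 421 counts in PTX males, 1, 0, 0 and 1 in vehicle females and 0 in each vehicle male library. Lat had 435, 498, 169 and 118 counts in PTX males and 0 in all 7 vehicle libraries. The means in PTX males were 51.7 ± 34.9 CPM for Cd3g and 34.2 ± 23.9 CPM for Lat (SD, n = 4 each). Over the mean floor of 3 counts per library in vehicle males these were at least 143-fold and 94.8-fold higher. The lowest PTX library over the highest vehicle male floor gave 44.8-fold for Cd3g and 25.0-fold for Lat. Over vehicle females, Lat was at least 40.4-fold higher by means. By the lowest PTX library and the highest floor, that of vehicle female 2 (2.35 CPM), it was 5.77-fold higher.

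These differences did not pass in edgeR. For PTX males against vehicle males the adjusted p was 0.146 for Cd3g, 0.205 for Lat, 0.233 for Il2rb and 0.861 for Cxcr6, so none was called, where 1.45% of all 10939 tested keratinocyte genes were. For PTX males against vehicle females it was 0.156, 0.152, 0.142 and 0.231 for Cd3g, Lat, Il2rb and Cxcr6 in edgeR, and again none was called, where 1.55% of all genes were. Because Cd3g, Il2rb and Lat were tested only through the group in which they were high, the number of them past a threshold is no support for a difference. This holds for the calls of the alternative fits that follow as well. DESeq2 called Cd3g, Il2rb and Lat over vehicle males, where it called 12.2% of all genes, and these 3 with Cxcr6 over vehicle females, where it called 9.32%. limma with voom called Cd3g and Lat in each comparison, where it called 3.52% of all genes over vehicle males and 4.45% over vehicle females. With both vehicle groups as controls edgeR called 5.36% of all genes, among them Cd3g (adjusted p = 0.0171), Lat (adjusted p = 0.0278) and Il2rb (adjusted p = 0.0311).

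The PTX keratinocyte libraries did not carry the same T cell genes. Library 1 held 639 counts of Cd3d, 1377 of Cxcr6 and 1677 of Il7r, but 0 of Il2rb and Lck. Library 2 held 1474 counts of Il2rb and 0 of Cd3d, Cd3e, Cxcr6, Il7r and Lck. Library 3 held 1108 counts of Cxcr6 and 246 of Cd3e, and library 4 held 564 of Lck and 390 of Il2rb. Cd4 was at 36 counts in library 1 and 0 in the others, and Cd8a did not exceed 1 count.

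The K5 label of these PTX libraries went with RNA of other cells. Ptprc averaged 201 ± 44.5 CPM in PTX males, 2.11 ± 1.33 CPM in vehicle females (SD, n = 4 each) and 0.598 ± 0.169 CPM in vehicle males (SD, n = 3). The 10 fibroblast genes summed to 15774 to 21064 CPM in PTX males, 280 to 1357 CPM in vehicle females and 152 to 750 CPM in vehicle males, and 6 of 10 were called higher over vehicle males, beside 1.15% of all genes. The 10 endothelial genes summed to 2567 to 3610 CPM in PTX males, 1.08 to 25.1 CPM in vehicle females and 1.05 to 381 CPM in vehicle males, with 8 of 10 called higher over vehicle males. The 10 keratinocyte genes summed to 5254 to 14722 CPM in PTX males, 22847 to 37736 CPM in vehicle females and 32757 to 38212 CPM in vehicle males, with 7 of 10 called lower over vehicle males, beside 0.302% of all genes. The counts of Cd3g and Lat were higher in these PTX libraries, as were Ptprc and the fibroblast and endothelial lists, while the keratinocyte list was lower. The part of RNA of other cells in the counts of Cd3g and Lat was not tested.

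In fibroblasts none of the 10 genes passed the filter on low counts, so none was tested, and 0.0184% of 10857 tested genes were called. The counts of any member did not exceed 10 in any of the 4 PTX male or 4 vehicle male libraries. In vehicle females they did not exceed 5, apart from Il2rb in replicate 3 (252 counts, 14.2 CPM). Cd8a had 0 counts in all 12 fibroblast libraries, which allows up to 0.144 to 0.296 CPM, depending on the library, by a limit of 3 counts per library, for counting error only.

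The genes whose level followed the mean of the CD3 chains most closely were searched over the 12 immune libraries, among 12121 tested genes outside the set. The measure was Pearson's r with the mean log2(CPM + 1) of Cd3d, Cd3e and Cd3g. The highest values belonged to Eef2 (0.858), Zfp217 (0.840), Fnbp1 (0.835), Parp2 (0.834), Ctsw (0.820), Podnl1 (0.817), Arap2 (0.810), Gm8369 (0.806), Snord37 (0.806) and Vasp (0.804). After each group was centred on its mean, the same 10 genes had r of 0.755 to 0.874. Of the 10, Ctsw, the cathepsin W of cytotoxic lymphocytes, averaged 47.3 CPM in PTX males, 29.5 CPM in vehicle females and 25.0 CPM in vehicle males. The 12 points share the sort and the scaling, and the 10 are the top of a long ranking over few libraries. Over these libraries r was 0.097 between Cd3d and Cd3e, -0.074 between Cd3d and Cd3g and 0.622 between Cd3e and Cd3g. The mean is thus not a level that the 3 chains share.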

How the data were processed

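Stranded TruSeq libraries of messenger RNA were read from 1 end over 50 bases, as the labels' protocols state. TopHat2 on mm9, with HTSeq for counting and bcl2fastq for demultiplexing, made the tables, per the submitters' processing notes. The versions of these tools, the annotation and the strand option were not given in the sources used here. Each deposited table lists whole read counts by gene symbol for a single library, and the authors applied no normalization. HTSeq's summary lines (reads in no gene or with no unique place) were dropped, and 19.3 to 52.3% of a library's reads were counted in genes.

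The 3 sorts were fitted separately with edgeR 4.0.16 (R 4.3.3), using the filterByExpr and TMM defaults, a robust glmQLFit with a mean for each group, and glmQLFTest, whose p-values were adjusted by Benjamini-Hochberg over all tested genes and called at 0.05. Alternatives used RLE, plain library sizes, scaling to 10 pan-immune genes, no filter, DESeq2 1.42.0, limma 3.58.1 with voom quality weights, only the groups compared, pooled vehicles, a block for the replicate number, and each library left out; a fit without keratinocyte vehicle female 2 was chosen after seeing the data. The scripts were tested on simulated counts. Pairing of libraries by replicate number was not evident. Intervals and floors of 3 counts cover counting error only.

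The 10 genes and the 18 lists (255 of 262 entries found) were chosen with earlier results of these data known. All 10 genes are named; from each list up to 5 genes that passed in an immune comparison, or at most 2 with the lowest p. Promoters are RefSeq's (8 of 10 genes matched); the table's build, GRCm38.p6, is not that of the counts.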

Additional observations from a re-analysis of the deposited data

Results flagged for a closer look

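Of 51 groups of 4 libraries, 11 held a library whose gap to the nearest of the other 3 took most of the group's range; the critical value is set so that chance flags about 1 in 20 groups of normally distributed values, and the rate for skewed CPM values was not measured. In the immune sort, Lck in vehicle female 2 stood at 102 CPM, against 3.15 to 4.92 CPM in the other vehicle females, and Il7r in vehicle male 1 at 103 CPM, against 21.7 to 28.9 CPM in the other vehicle males.

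In keratinocytes from PTX males, 4 genes stood out in single libraries. Cd3d had 62.1 CPM in library 1 and at most 0.0800 CPM elsewhere in the group. Cd3e had 19.7 CPM in library 3 and at most 2.42 CPM in the others. Cd4 had 3.50 CPM in library 1 and 0 in the others, and Lck had 80.3 CPM in library 4 and at most 4.48 CPM in the others.

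Keratinocytes from vehicle female 1 held 52.4 CPM of Cd3d and 113 CPM of Cd8a, while the other vehicle females had at most 0.108 CPM of Cd3d and no count of Cd8a. Its Cd3e and Cd3g counts were 0 and 1.

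In fibroblasts, Il2rb had 14.2 CPM in vehicle female 3, against 0.0524 to 0.110 CPM in the other vehicle females, and 0.800 CPM in PTX male 3, against 0.106 to 0.200 CPM in the other PTX males. Lat had 0.256 CPM in vehicle male 4, against 0.0480 to 0.0764 CPM in the other vehicle males; at these levels a value is a few reads. No gene moved with every PTX library one way in one sort and the opposite way in another, among 30 pairs looked at. That check could flag little: no member passed the filter in fibroblasts. In the immune sort the groups of Cxcr6 alone did not overlap, and in keratinocytes those of Cxcr6 overlapped.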

How the results depend on the processing

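Of 600 values of the 10 genes under alternatives, 522 kept direction and side of the threshold, 16 gained and 10 lost a call, and 52 reversed, all of them among differences that edgeR did not call. For immune PTX males against vehicle males the count of called members, 1 with 669 of all genes called, was 0 with plain library sizes, 0 without the filter (407 of all genes), 2 in DESeq2 (1870 genes), 0 with voom weights (38 genes, of which 37 lay higher and 1 lower, against 116 and 553) and 0 under pan-immune scaling. Leaving out a library gave 0 to 1 members and 230 to 954 genes. Against vehicle females, 0 members and 213 genes became 1 member and 1258 genes in DESeq2, 94 genes without the filter, 1 with voom weights, 2 with only the compared groups and 8 to 520 with a library left out. For vehicle females against vehicle males, 43 genes became 284 in DESeq2, 444 with voom weights, 166 with only these groups and 12 to 29 with a library left out. In fibroblasts 2 genes became 1 with RLE, plain library sizes or only the compared groups, 4 without the filter, 403 in DESeq2, 0 with voom weights and 0 to 4 with a library left out. In keratinocytes against vehicle males 0 members and 159 genes became 3 and 1339 in DESeq2, 2 and 385 with voom weights, 3 and 586 with pooled vehicles, 84 to 121 genes with a PTX or vehicle male library left out, and 148 without vehicle female 2. Against vehicle females 0 members and 170 genes became 4 and 1019 in DESeq2, 2 and 487 with voom weights, 266 genes with only the compared groups and 93 to 121 with a library left out. Of the keratinocyte members called, Cd3g, Il2rb and Lat were tested only through the PTX libraries, so their number is no support for a difference. DESeq2 called more than edgeR in each comparison, and the cause was not tested.

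Pairing of libraries by replicate number was not evident: same-numbered libraries' deviations correlated at -0.049 to 0.115. Such low values cannot exclude a pairing. With the replicate number as a block, 0 members and 148 genes were called in immune PTX males against vehicle males (Cxcr6 2.37, adjusted p = 0.102 in edgeR), 3 genes against vehicle females and 24 between the vehicle groups. Under the block, Cd3d reversed to -1.91, -0.95 and -0.96 in these 3 comparisons, and Il2rb to -0.083 and -0.48 in the comparisons with PTX.

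The other reversals were as follows, on the log2 scale. For PTX males over vehicle males, voom weights gave -1.19 for Cd3d, -0.42 for Il2rb and -0.53 for Il7r, and pan-immune scaling -0.21 for Cd3d and -0.17 for Il2rb. Over vehicle females, Cd3d was -0.047 without the filter, -0.050 with only the compared groups, -0.093 under pan-immune scaling and -0.21 with plain library sizes; Il2rb was -0.029 with plain library sizes, -0.22 under pan-immune scaling and -0.046 with voom weights; and voom weights gave -1.08 for Il7r and -0.12 for Lat. For vehicle females over vehicle males, pan-immune scaling gave -0.12 for Cd3d, -0.20 for Il7r and -0.063 for Lat, and voom weights -3.15 for Cd3d and -0.38 for Il2rb. With a library left out, PTX males over vehicle males ranged from -1.40 to 0.69 for Cd3d, -0.71 to 0.32 for Cd4, -0.49 to 0.97 for Il2rb and -0.51 to 1.70 for Il7r. Over vehicle females the ranges were -1.74 to 1.61 for Cd3d, -0.87 to 1.24 for Il2rb, -0.59 to 1.41 for Il7r and -0.19 to 1.18 for Lat. Vehicle females over vehicle males ranged from -1.34 to 0.75 for Cd3d, -0.072 to 0.71 for Cd3e, -0.95 to 0.0046 for Cd3g, -0.69 to 0.70 for Il2rb, -0.22 to 0.86 for Il7r and -2.99 to 0.13 for Lck. The median of all genes in PTX males over vehicle males was 0.10, -0.25 with plain library sizes, -0.54 under pan-immune scaling, -0.61 under the block and -1.22 with voom weights. Scaling applies the same factor to all genes of a library, but the factors differ between libraries, so group differences did not shift equally. Relative to that median, Cd3d was 0.22 under TMM and 0.33 under pan-immune scaling in PTX males over vehicle males. Il2rb was 0.57 and 0.37, and Cd4 -0.22 and 0.12. The cause of the reversals was not tested. With 4 libraries a group and a biological coefficient of variation of 1.23 in immune cells, a p that misses the threshold does not show that a gene did not differ.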
